A study of Homo sapiens with 6 samples.

Results

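To examine the ATF4 amino acid stress response after PRMT1 knockdown (PRMT1 KD), 10 genes were followed by symbol in the RNA-seq of a myeloma cell line. They were ATF4, 2 further bZIP factors of the same response (ATF5 and CEBPB), 2 genes of its stress outputs (TRIB3 and CHAC1) and 5 enzymes of asparagine, serine and mitochondrial folate metabolism (ASNS, PHGDH, PSAT1, SHMT2 and MTHFD2). All 10 were found among the 58735 genes of the deposited table, and 9 of them were among the 13585 genes with a mean level of at least 1 FPKM (reads per kilobase of gene length, scaled to the depth of the library), which were tested. The rule takes the 10 genes by name and sets no limit on any measured value, but the list was drawn up with earlier results of these data known.

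ATF4 is a transcription factor whose protein is controlled mainly at translation. When a kinase such as GCN2 (EIF2AK4), which senses uncharged tRNA, or PERK (EIF2AK3), which senses unfolded protein in the endoplasmic reticulum, phosphorylates the initiation factor eIF2, general protein synthesis falls while ATF4 mRNA is translated more. ATF4 protein then pairs with C/EBP factors on the composite element called CARE and switches on genes for amino acid synthesis, uptake and tRNA charging. Plasma cells and many myeloma cells secrete large amounts of antibody chains. The activity of the ATF4 pathway is commonly read from the mRNA of its target genes. The amount of ATF4 mRNA does not give the amount of ATF4 protein, which was not measured here.

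MM.1S, a human multiple myeloma cell line, was transfected with a negative control siRNA (control, n = 3 libraries) or with siRNA against PRMT1 (PRMT1 KD, n = 3 libraries). PRMT1 is the main enzyme that places asymmetric dimethyl groups on arginine. The study's methods give 100 nM siRNA in both groups and RNA-seq at 72 h after transfection. They do not name which PRMT1 siRNA the sequenced cells received, so an effect of that siRNA on other genes cannot be told apart from an effect of losing PRMT1 in this single line. The methods describe the triplicates of each experiment as biological but dependent, without saying what they shared or whether each library came from its own culture. The p-values therefore measure only the spread between these libraries, part of which may be technical.

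The libraries held 16064769 to 16465026 reads on genes in control and 14439217 to 16313196 in PRMT1 KD, and no library stood apart, with Pearson r of 0.980 to 0.984 across genes within groups and 0.974 to 0.979 between them. PRMT1 itself read 61.7, 62.8 and 58.9 FPKM in the control libraries and 13.3, 14.0 and 12.5 FPKM in the PRMT1 KD libraries. It thus remained at 21.7% of the control mean and fell by 2.13 on the log2 scale (standard error 0.0552, limma adjusted p = 2.8e-05), as the labels state. In the fit across all genes, 279 of the 13585 genes tested passed an adjusted p of 0.05 (2.05%), 145 higher and 134 lower in PRMT1 KD. That split moved to 82 higher and 139 lower when each library was scaled to its median, and to 222 higher and 133 lower on the TPM scale. Of 8 plasma cell markers, all 8 were measured and tested. An unadjusted limma p under 0.05 was reached by 5, 3 lower and 2 higher, against 19.5% of all genes tested. Of these, SLAMF7 alone was called and fell from 38.0 to 23.8 FPKM (limma adjusted p = 0.0051). PRDM1 stood at 87.5% and XBP1 at 91.4% of the control mean, and MZB1 stood at 108% and CD38 at 128%, each without overlap of the groups. Groups without overlap, in either direction, were found for 25.9% of all genes tested. SDC1, TNFRSF17 and IRF4 overlapped between the groups, at means of 50.8 to 286 FPKM. Of 8 markers of other cells, 7 had a mean below 1 FPKM, with MS4A1 and HBB listed at 0 in every library. The exception was CD3E, a chain of the T cell receptor complex, at 33.4 ± 1.89 FPKM in control and 38.1 ± 1.40 FPKM in PRMT1 KD (SD, n = 3). The summed level of these 8 markers ran from 33.3 to 36.4 FPKM in control and from 37.5 to 39.9 FPKM in PRMT1 KD, and its part in the results below was not tested.

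No member passed the adjusted threshold. With limma, 0 of the 9 members tested had an adjusted p under 0.05, against 2.05% of all genes tested in either direction, 0.986% lower and 1.07% higher. CHAC1 and SHMT2 had the strongest evidence, both lower in PRMT1 KD and just outside the threshold. An unadjusted limma p under 0.05 was reached by 2 of the 9 members, CHAC1 and SHMT2, and by 19.5% of all genes tested. When the counts of reads were tested instead (limma voom), the same 2 members passed an adjusted p of 0.05, against 6.82% of all genes. In 3 of the 9 tested members, CHAC1, SHMT2 and ATF4, every PRMT1 KD library lay below every control library, whereas 12.3% of all genes tested were separated in that direction and 25.9% in either. The median log2 fold change of the 9 members was -0.03, beside 0.01 for all genes tested, and 7 of the 9 had a value below 0, among them CEBPB and ASNS, whose sign turned on the TPM scale. In bulk RNA, fewer cells of one kind and less RNA per cell cannot be told apart.

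**Figure D1:**
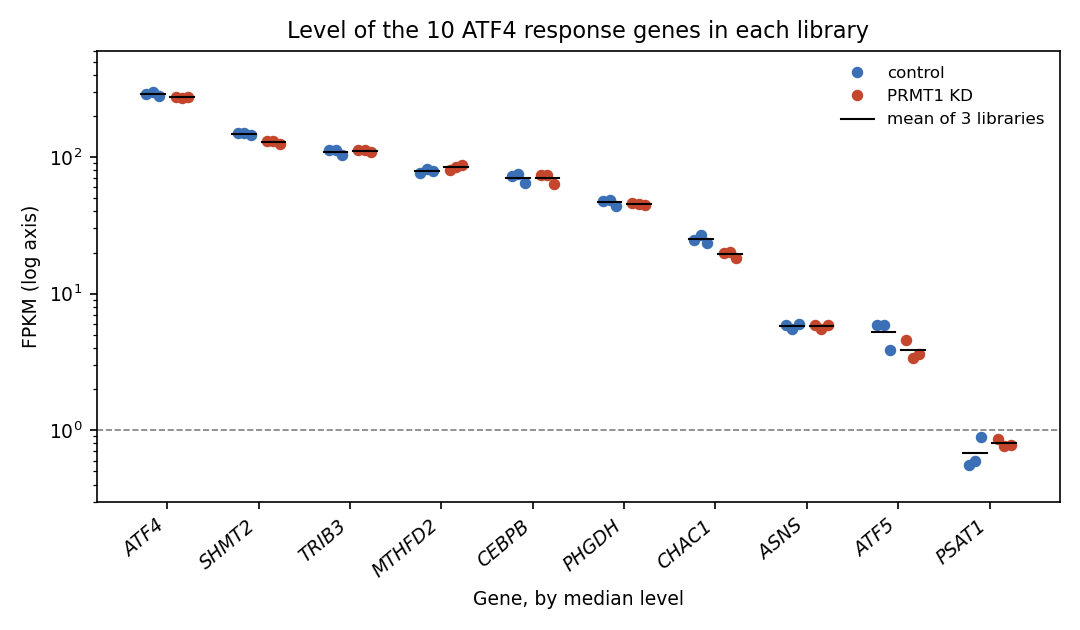
FPKM of each of the 10 genes (log axis), with the 3 control libraries in blue and the 3 PRMT1 KD libraries in red, a black bar at each group's mean and a dashed line at the 1 FPKM limit for testing. The genes keep their order from ATF4 (272.6 to 300.3 FPKM) down to PSAT1 (0.552 to 0.885 FPKM) in both groups, and PSAT1 alone lies under the line.

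The 10 genes spanned a wide range of levels, compared here per gene length as FPKM. Their order depends on the gene lengths used, such as 9217 bases for PHGDH and 1956 bases for CEBPB. Over the 6 libraries ATF4 was highest, with a median of 276 FPKM, followed by SHMT2 at 139 FPKM, TRIB3 at 112 FPKM, MTHFD2 at 81.3 FPKM, CEBPB at 73.1 FPKM, PHGDH at 45.8 FPKM and CHAC1 at 21.8 FPKM. ASNS at 5.92 FPKM and ATF5 at 4.21 FPKM came next, and PSAT1 was lowest at 0.771 FPKM. Every neighbouring pair in this order was separated in all 6 libraries except ASNS and ATF5, whose values overlapped. The serine pathway was thus uneven at the mRNA level. PHGDH, which performs the first step of serine synthesis, had 6052 to 7287 reads per library, whereas PSAT1, which performs the next step, had 20 to 32 reads in any library.

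ATF4 (ENSG00000128272, chromosome 22, 39519695 to 39522685, hg38) read 287, 300 and 278 FPKM in the control libraries and 273, 273 and 274 FPKM in the PRMT1 KD libraries. The PRMT1 KD libraries lay close together and just below the lowest control library, so the groups did not overlap, by a gap that was small beside the spread of the controls. The means were 288.6 ± 11.1 FPKM and 273.4 ± 0.711 FPKM (SD, n = 3), and the log2 fold change was -0.08 (95% confidence interval -0.18 to 0.02, limma adjusted p = 0.370). On the fitted scale PRMT1 KD was therefore between 88.4% and 102% of control. Without the second control library the log2 fold change was -0.05. ATF4 has 4 named pseudogenes in the annotation, none with more than 26 reads in a library, against 9868 to 12173 reads for ATF4.

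ATF5 (ENSG00000169136, chromosome 19, 49928702 to 49933935) encodes a related bZIP factor that acts in the mitochondrial unfolded protein response and is, like ATF4, controlled through upstream reading frames. It read 5.85, 5.90 and 3.85 FPKM in control and 4.57, 3.39 and 3.60 FPKM in PRMT1 KD. The third control library was low and the first PRMT1 KD library was above it, so the groups overlapped. The log2 fold change of -0.34 carried the widest interval of the members (-0.72 to 0.03, limma adjusted p = 0.294), and it rests on 144 to 286 reads per library. ATF5 overlaps IL4I1, NUP62 and AC011452.1 on the opposite strand and MIR4751 on its own strand, and the strand setting of the counting is not given in the sources used here.

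CEBPB (ENSG00000172216, chromosome 20, 50190734 to 50192689) encodes C/EBPβ, a dimer partner of ATF4 on CARE elements. It read 72.3, 74.9 and 65.1 FPKM in control and 73.8, 73.9 and 63.5 FPKM in PRMT1 KD. In each group the third library was the lowest and the ranges were nearly the same. Its log2 fold change was -0.01 (95% confidence interval -0.19 to 0.18, limma adjusted p = 0.971), with a sign that turned under quantile normalization and on the TPM scale. CEBPB-AS1 overlaps it on the opposite strand.

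**Figure D2:**
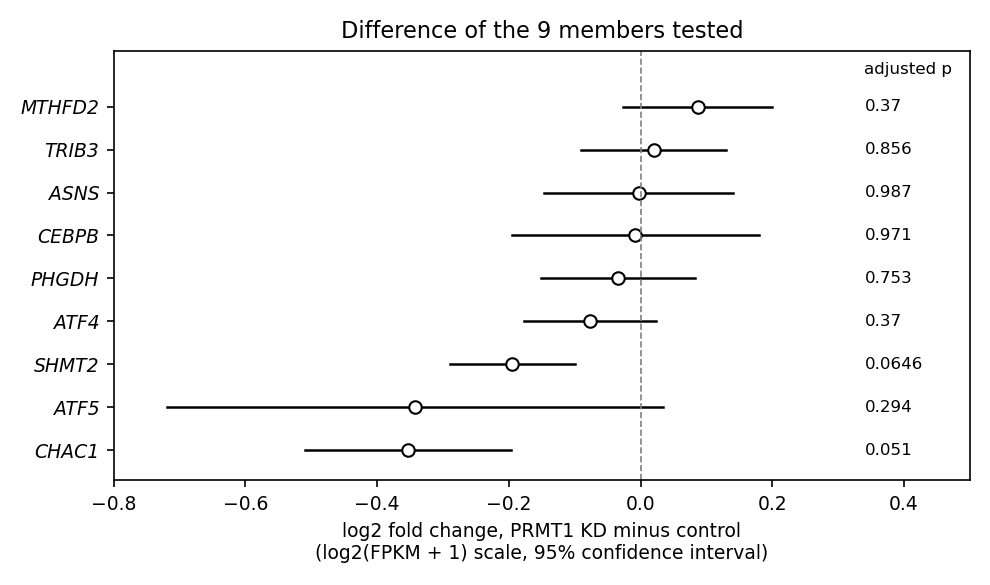
Log2 fold change of PRMT1 KD against control for the 9 members tested, on the log2(FPKM + 1) scale, with the limma 95% confidence interval as a line and the adjusted p at the right. Open circles mark genes that did not pass 0.05, which here is all 9, and only the intervals of CHAC1 and SHMT2 leave out 0.

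TRIB3 and CHAC1 are outputs of strong or lasting stress. TRIB3 (ENSG00000101255, chromosome 20, 362835 to 397559) encodes a pseudokinase that restrains AKT and feeds back on ATF4 itself. It read 113, 112 and 104 FPKM in control and 112, 112 and 109 FPKM in PRMT1 KD, and all PRMT1 KD libraries lay inside the control range. Its log2 fold change was 0.02 (95% confidence interval -0.09 to 0.13, limma adjusted p = 0.856), turning sign when each library was scaled to its median. On the fitted scale this interval runs from 94.0% to 109% of control.

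CHAC1 (ENSG00000128965, chromosome 15, 40952962 to 40956519) encodes a γ-glutamylcyclotransferase that degrades glutathione. It read 24.9, 27.0 and 23.4 FPKM in control and 19.8, 20.1 and 18.3 FPKM in PRMT1 KD. All 3 PRMT1 KD libraries lay below all 3 control libraries, with 573 to 673 reads against 797 to 896. The mean was 25.1 ± 1.79 FPKM in control and 19.4 ± 0.995 FPKM in PRMT1 KD (SD, n = 3), or 77.4% of control. In the fit the log2 fold change was -0.35 (standard error 0.0662, 95% confidence interval -0.51 to -0.20, limma adjusted p = 0.051). By an exact permutation test over libraries (two-sided) p was 0.1, the least that 3 against 3 allows. The adjusted p moved to 0.0109 when reads were tested, to 0.0247 when only genes of at least 5 FPKM were tested and to 0.0426 after quantile normalization, and ranged up to 0.182 over all alternatives.

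ASNS (ENSG00000070669, chromosome 7, 97852118 to 97872542) encodes asparagine synthetase, the classical target of the amino acid response. It read 5.91, 5.498 and 6.004 FPKM in control and 5.93, 5.52 and 5.92 FPKM in PRMT1 KD. The groups overlapped almost completely. The log2 fold change was -0.003 (95% confidence interval -0.15 to 0.14, limma adjusted p = 0.987), and its sign turned on the TPM scale. ASNS had 354 to 442 reads per library, and its 4 named pseudogenes held up to 160 reads in a library, so that reads could have been split between near copies.

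The CARE core TGATGNAA, or TTNCATCA on the other strand, was searched in RefSeq windows (GRCh38.p14) from 250 bases before to 50 bases after each annotated start. Among the 9 members with a window, ASNS and CHAC1 held it, a share of 22.2%, against 4.46% of the 27305 genes with a window and 3.62% of the 35116 windows. SHMT2 had no window. The 30 bases around each match are shown 5′ to 3′ on the gene's strand, because these 2 members carry the same element and had different values. Capitals mark the match, which began 68 bases before the start of ASNS (chr7:97872458-97872487, minus strand) and 209 bases before that of CHAC1 (chr15:40953251-40953280, plus strand).
ASNS: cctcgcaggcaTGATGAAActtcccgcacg
CHAC1: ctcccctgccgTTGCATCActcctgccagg
ASNS carries the element in the forward direction and CHAC1 in the reverse one. Both stretches lie before the RefSeq start but inside the longer gene span that GENCODE 29 gives. A match of these letters is a description of the window and not a measured binding site.

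Of the serine and folate enzymes, PHGDH (ENSG00000092621, chromosome 1, 119648411 to 119744226) read 47.7, 48.1 and 43.8 FPKM in control and 45.9, 45.6 and 44.7 FPKM in PRMT1 KD. The PRMT1 KD libraries lay within the control range. Its log2 fold change was -0.03 (95% confidence interval -0.15 to 0.08, limma adjusted p = 0.753). PSAT1 (ENSG00000135069, chromosome 9, 78297143 to 78330093), phosphoserine aminotransferase, read 0.552, 0.595 and 0.885 FPKM in control and 0.858, 0.762 and 0.780 FPKM in PRMT1 KD. It was under the 1 FPKM limit and was not tested with the others. Without the limit its log2 fold change was 0.11 (95% confidence interval -0.19 to 0.41, limma adjusted p = 0.756).

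SHMT2 (ENSG00000182199, chromosome 12, 57229327 to 57234935) encodes the mitochondrial serine hydroxymethyltransferase, which splits serine into glycine and a folate-bound carbon unit. It read 149, 149 and 146 FPKM in control and 132, 131 and 125 FPKM in PRMT1 KD. The groups did not overlap and each was narrow. The mean was 148 ± 1.74 FPKM in control and 129 ± 3.97 FPKM in PRMT1 KD (SD, n = 3), or 87.3% of control. In the fit the log2 fold change was -0.19 (standard error 0.0404, 95% confidence interval -0.29 to -0.10, limma adjusted p = 0.0646). The exact permutation p was again 0.1. The adjusted p was 0.0248 when reads were tested, 0.044 among genes of at least 5 FPKM, and up to 0.234 over all alternatives. SHMT2 is overlapped on the opposite strand by AC137834.2 and NDUFA4L2.

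MTHFD2 (ENSG00000065911, chromosome 2, 74198562 to 74217565), the mitochondrial methylenetetrahydrofolate dehydrogenase that acts next to SHMT2, had a value above 0 that did not pass the test. It read 76.8, 81.8 and 79.3 FPKM in control and 80.9, 84.2 and 87.8 FPKM in PRMT1 KD, and the lowest PRMT1 KD library was below the highest control library. The log2 fold change was 0.09 (95% confidence interval -0.03 to 0.20, limma adjusted p = 0.371).

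**Figure D3:**
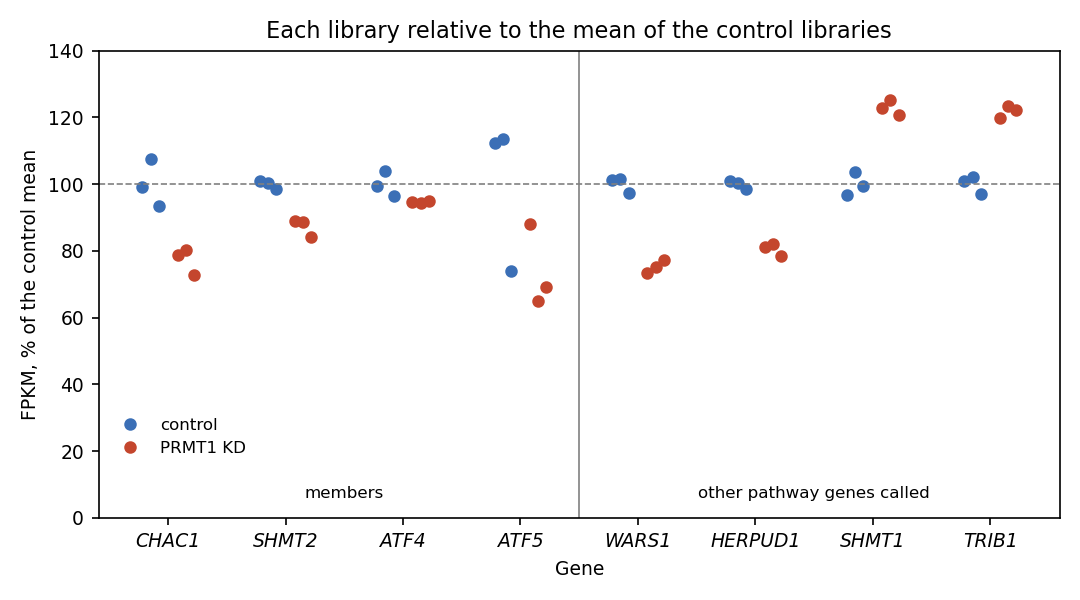
FPKM of every library as a percentage of the control mean for 4 members (left of the line) and for the 4 other pathway genes that passed the test (right), with control libraries in blue and PRMT1 KD libraries in red. The PRMT1 KD means are 77.4% for CHAC1, 87.3% for SHMT2, 94.7% for ATF4 and 74.1% for ATF5, and the groups overlap only for ATF5.

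The rest of the pathway was read from 7 lists that hold 96 further genes, of which 85 were tested. Of the 85, 4 passed an adjusted p of 0.05 in limma, WARS1 and HERPUD1 lower and SHMT1 and TRIB1 higher, against 2.05% of all genes tested. An unadjusted limma p under 0.05 was found for 17 of the 85, 12 of them lower, against 19.5% of all genes tested. The median log2 fold change of the 85 was -0.02, beside 0.01 for all genes tested.

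The sensors and the eIF2 machinery upstream of ATF4 held no called gene. Among 8 eIF2 kinases and their helpers, 7 were tested and 0 passed, against 2.05% of all genes tested. The median log2 fold change was -0.02. An unadjusted limma p under 0.05 was reached by 1, EIF2AK1 (-0.13 on the log2 scale), against 19.5% of all genes tested. EIF2AK4 (GCN2) was low, at 1.58 ± 0.106 FPKM in control and 1.84 ± 0.202 FPKM in PRMT1 KD (SD, n = 3), and its log2 fold change was 0.13. OMA1, a mitochondrial protease that relays stress to eIF2 through DELE1, had 0.13 as well. EIF2AK3 (PERK) stood at 44.4 and 44.8 FPKM, and IMPACT, an inhibitor of GCN2 signalling, was listed at 0 in every library. Among 10 genes of eIF2, its exchange factor eIF2B and its phosphatase, all 10 were tested and 0 passed, with a median of 0.05. In this list 1 gene, PPP1R15B (0.11 on the log2 scale), had an unadjusted limma p under 0.05. The shares of all genes tested were again 2.05% and 19.5%. With reads (limma voom) 0 genes passed in either list, against 6.82% of all genes tested. The largest values in that list were 0.13 for EIF2B2, a subunit of eIF2B, and 0.11 for PPP1R15A (GADD34), the stress-induced phosphatase subunit that is itself an ATF4 target.

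Of the bZIP partners and cofactors, 7 of 12 were tested, and the median was -0.02. In limma 0 passed and 0 had an unadjusted p under 0.05, against 2.05% and 19.5% of all genes tested. When reads were tested 0 passed, against 6.82% of all genes tested. DDIT3 (CHOP), the proapoptotic factor induced by ATF4, read 45.9, 40.6 and 42.0 FPKM in control and 35.7, 39.9 and 40.8 FPKM in PRMT1 KD, and its value was -0.14 on the log2 scale (limma adjusted p = 0.327). The highest PRMT1 KD library lay just above the lowest control library. NFE2L2, the oxidative stress factor NRF2, had 0.14 (limma adjusted p = 0.358).

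Among the other enzymes of amino acid and folate metabolism, 17 of 20 were tested, and the median was -0.03. Of these, 1 passed higher and 0 lower, against 2.05% of all genes tested in either direction. The gene that passed was SHMT1 (ENSG00000176974, chromosome 17, 18327860 to 18363563), the cytosolic counterpart of SHMT2. SHMT1 read 10.6, 11.4 and 10.9 FPKM in control and 13.5, 13.7 and 13.2 FPKM in PRMT1 KD. All PRMT1 KD libraries were above all control libraries, and the log2 fold change was 0.27 (95% confidence interval 0.16 to 0.39, limma adjusted p = 0.0472). It passed in only 4 of the 15 alternatives, and with any 1 of the 6 libraries left out the adjusted p was 0.0871 to 0.19. The second largest value was GLUL, glutamine synthetase, at 0.18 (limma adjusted p = 0.323).

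Among 24 stress effectors, 22 were tested and 2 passed, 1 in each direction, against 2.05% of all genes tested. An unadjusted limma p under 0.05 was found for 8 of the 22, 7 of them lower, against 19.5% of all genes tested. The median was -0.08, beside 0.01 for all genes tested, and 17 of the 22 values lay below 0. HERPUD1 (ENSG00000051108, chromosome 16, 56932048 to 56944863), a membrane protein of the degradation machinery of the endoplasmic reticulum, read 119.7, 119 and 117 FPKM in control and 96.1, 97.2 and 93.0 FPKM in PRMT1 KD. The groups were far apart for their spread, and HERPUD1 fell by 0.31 on the log2 scale (95% confidence interval -0.40 to -0.22, limma adjusted p = 0.024). Its RefSeq window carries the reverse CARE core 176 bases before the start (chr16:56931955-56931984, plus strand), outside the GENCODE 29 gene span. It is shown because CHAC1 holds the same letters. So do the windows of TARS1, IARS1, CARS1, MARS1, AARS1, FGF21, SLC1A4 and GOT1, none of which was called. Their log2 fold changes ran from -0.25 (FGF21) to 0.05 (IARS1). A part of the element in these values was not tested.
HERPUD1: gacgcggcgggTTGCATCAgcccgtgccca
TRIB1 (ENSG00000173334), a paralog of TRIB3 that guides C/EBP factors to degradation, read 194, 197 and 187 FPKM in control and 231, 238 and 235 FPKM in PRMT1 KD. The groups did not overlap, and TRIB1 rose by a log2 fold change of 0.28 (95% confidence interval 0.19 to 0.38, limma adjusted p = 0.0302). HERPUD1 passed in 8 of the 15 alternatives and TRIB1 in 7. With 1 library left out the adjusted p of TRIB1 was 0.0589 to 0.143, and that of HERPUD1 was 0.0496 without the third control library and 0.0627 to 0.134 without any 1 of the others.

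The 10 amino acid transporters were all tested and 0 passed, against 2.05% of all genes tested. An unadjusted limma p under 0.05 was found for 3, 2 of them higher, against 19.5% of all genes tested. The median was 0.02. SLC7A5 (LAT1), the carrier of leucine and other large neutral amino acids, read 207, 218 and 185 FPKM in control and 267, 260 and 227 FPKM in PRMT1 KD, without overlap of the groups. Its log2 fold change was 0.31 (95% confidence interval 0.11 to 0.50, limma adjusted p = 0.117). SLC38A2 (SNAT2), a glutamine and alanine carrier that is strongly induced by amino acid shortage, read 77.2, 77.7 and 87.1 FPKM in control and 92.1, 94.5 and 100.3 FPKM in PRMT1 KD, also without overlap. Its log2 fold change was 0.24 (95% confidence interval 0.10 to 0.39, limma adjusted p = 0.099). When reads were tested, 3 transporters passed, SLC7A5 and SLC38A2 higher and SLC38A1 lower, against 6.82% of all genes tested.

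Of the 12 aminoacyl-tRNA synthetases, which are classical ATF4 targets, all 12 were tested, and the median was -0.02. Of these, 1 passed lower and 0 higher, against 2.05% of all genes tested in either direction. WARS1 (ENSG00000140105, chromosome 14, 100333788 to 100376805), the tryptophanyl-tRNA synthetase that interferon also induces, read 131, 131 and 126 FPKM in control and 94.8, 97.1 and 99.96 FPKM in PRMT1 KD. The groups were widely separated, and WARS1 fell by 0.41 on the log2 scale (95% confidence interval -0.50 to -0.31, limma adjusted p = 0.0144). It passed in 10 of the 15 alternatives, at 0.0303 without the third control library and 0.0431 without the third PRMT1 KD library, but not without any 1 of the others (0.0514 to 0.104). AARS1 came next at -0.16 on the log2 scale (limma adjusted p = 0.105), and the other 10 lay between -0.07 and 0.10. Among the genes with a window, the CARE core was present in 7 of 10 synthetases, and WARS1 was not among these 7. The core was also in 5 of 9 transporters, 3 of 10 bZIP partners, 3 of 12 other enzymes and 2 of 18 stress effectors. It was in 1 of 9 genes of eIF2 and its exchange factor, 0 of 7 eIF2 kinases and helpers and 0 of 16 genes of the ATF6 and XBP1 branches. The share among all genes with a window was 4.46%.

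**Figure D4:**
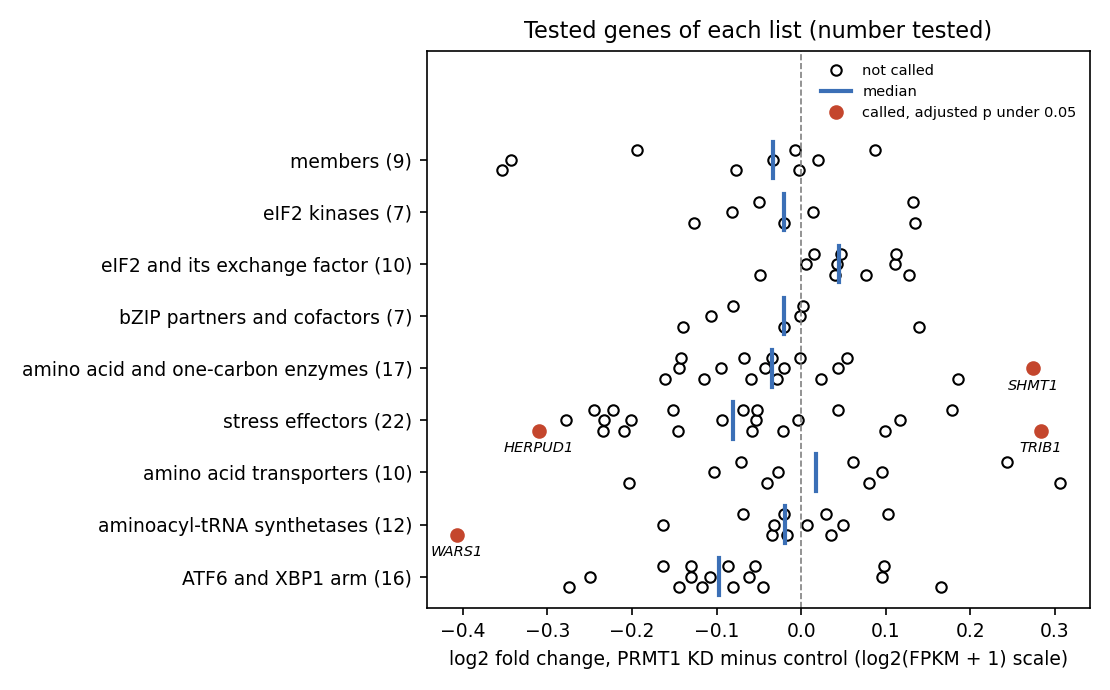
Log2 fold change of PRMT1 KD against control for each tested gene of the members and of 8 further lists, on the log2(FPKM + 1) scale, with the number tested in brackets, a blue bar at each list's median and filled red circles for genes with a limma adjusted p under 0.05. Only WARS1, HERPUD1, SHMT1 and TRIB1 are filled, and the medians lie between -0.10 and 0.05.

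The other branches of the unfolded protein response, which run through ATF6 and through IRE1 (ERN1) and XBP1, were read beside the ATF4 branch. All 16 genes were tested and 0 passed in limma, against 2.05% of all genes tested. An unadjusted limma p under 0.05 was found for 5, 4 of them lower, against 19.5% of all genes tested. With reads 2 passed (ERN1 and SEC61B), against 6.82% of all genes tested. The median log2 fold change was -0.10, beside 0.01 for all genes tested, and 13 of the 16 values lay below 0. ERN1, the sensor that splices XBP1 mRNA, read 61.9, 57.1 and 56.5 FPKM in control and 49.6, 48.9 and 46.1 FPKM in PRMT1 KD without overlap, with a log2 fold change of -0.27 (95% confidence interval -0.40 to -0.15, limma adjusted p = 0.0551). SEC61B, a subunit of the translocation channel, had -0.25 (limma adjusted p = 0.0999).

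As a description over the 6 libraries, ST3GAL1, a sialyltransferase (Pearson r = 0.994), and IGHG1, an immunoglobulin constant region (r = 0.992), were among the genes of at least 5 FPKM whose log2(FPKM + 1) was most like that of ATF4. These libraries share the siRNA contrast, so r reflects the group difference as well as the spread within groups. Among the other members, CHAC1 (r = 0.898) and ATF5 (r = 0.845) were the most like ATF4, whereas PSAT1 (r = -0.778) and ASNS (r = -0.413) were the least.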

How the data were processed

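RNA-seq of MM.1S cells gave 6 libraries, 3 control and 3 PRMT1 KD, grouped by their labels. The authors deposited FPKM values per gene. The submitters' processing notes name featureCounts 1.5.0-p3 and hg38, and the aligner and annotation release are not given in the sources used here. All 58735 gene identifiers were found in GENCODE 29, 58724 with the same start and end. Multiplied by gene length and the library size worked out from the smallest steps, 100% of the values came out as whole reads within 0.01, and the sizes that the authors used equal median-of-ratios size factors, so the FPKM are scaled for composition. Without the counting's strand setting, reads of overlapping genes cannot be told apart, and low genes rest on few reads.

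Values were tested as log2(FPKM + 1) with limma 3.58.1 (R 4.3.3, eBayes with trend, two-sided) over genes with a mean of at least 1 FPKM, with Benjamini-Hochberg adjustment over all 13585 genes tested. The pseudocount makes fold changes of low genes too small. Called genes have an adjusted p under 0.05. Exact permutation tests over libraries are two-sided and cannot go below 0.1. Confidence intervals are at 95%. The fit was tested on simulated data, where the sizes and directions of the changes were recovered, but the share of changed genes called was below the first requirement at the larger simulated spread, and that requirement was then lowered. Alternatives were a pseudocount of 0.1, no filter, a mean of at least 5 FPKM, median scaling, quantile normalization, TPM, no trend, a replicate block, limma voom on the reads (927 genes called) and leaving out each library. The members and the lists were chosen with earlier results of these data known. All members are named, and of each list the called genes and the 2 largest log2 fold changes. A few others (EIF2AK1, EIF2AK3, IMPACT, PPP1R15B, SLC38A1 and several plasma cell markers) were added after their values were seen. TARS1, IARS1, CARS1, MARS1, FGF21, SLC1A4 and GOT1 are named for the letters in their windows. The genes most like ATF4 were taken by Pearson r over the 6 libraries, and 1 result of that comparison is not reported here. Sequences are from RefSeq.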

Additional observations from a re-analysis of the deposited data

How the results depend on the processing

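Each library held 14439217 to 16465026 reads, of which PSAT1 had at most 32. The PRMT1 value kept its direction and its call in all 15 alternatives (-2.21 to -2.09). Against 279 genes called, no filter gave 35, a mean of at least 5 FPKM 473, no trend 43 and limma voom on reads 927, and leaving out a library 13 to 95. Against 0 members called, a mean of at least 5 FPKM and limma voom gave 2 (CHAC1 and SHMT2), and quantile normalization and the replicate block gave 1 (CHAC1), while leaving out a library gave 0 each time. Against 4 other pathway genes, no filter gave 1 (WARS1), no trend 0 and limma voom 7, and leaving out a library 0 to 2, with 0 without control 1, control 2, PRMT1 KD 1 or PRMT1 KD 2, 2 without control 3 and 1 without PRMT1 KD 3. Leaving out a library left fewer libraries, and the filters changed the number of genes tested. The causes of these differences were not tested.

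Signs turned only for CEBPB, TRIB3 and ASNS, none of them called. CEBPB turned to 0.0018 under quantile normalization and 0.012 in TPM, and ran from -0.066 to 0.064 with a library left out. TRIB3 turned to -0.0011 under median scaling, and ran from -0.019 to 0.041 with a library left out. ASNS turned to 0.016 in TPM, and ran from -0.036 to 0.026 with a library left out. Over all alternatives CHAC1 ran from -0.40 to -0.30, SHMT2 from -0.22 to -0.16, ATF4 from -0.10 to -0.05, ATF5 from -0.51 to -0.26, PHGDH from -0.076 to -0.0097 and MTHFD2 from 0.06 to 0.12, with the extremes of the last 4 reached by leaving out a library. Scalings put the median of all genes tested between -0.008 and 0.03.

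Libraries with the same replicate number deviated together with r of 0.020, 0.063 and 0.101, each the highest for its number, which was not enough to treat them as pairs. Blocking on the replicate number called 204 genes, 147 of them among the 279, 1 member (CHAC1, adjusted p = 0.0437) and 4 other pathway genes, with SLC7A5 higher in place of SHMT1.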

Other observations

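Paralogs of the serine hydroxymethyltransferase and Tribbles families were set side by side within each library, a choice made after their values were seen. The ratio of SHMT1 to SHMT2 in FPKM was 0.0712, 0.0764 and 0.0748 in control and 0.102, 0.105 and 0.106 in PRMT1 KD, 1.41 times as high in PRMT1 KD on average. The ratio of TRIB1 to TRIB3 was 1.72, 1.75 and 1.80 in control and 2.06, 2.12 and 2.15 in PRMT1 KD, 1.201 times as high. Neither ratio overlapped between the groups. The values of the chosen genes had already fixed this, since SHMT1 and TRIB1 had been called higher, SHMT2 lay lower and TRIB3 hardly differed. These ratios are given as a description, with no test.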
